A study of Mus musculus with 172 samples.

Results

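Fatty acid uptake and oxidation was followed through 39 genes, picked by symbol from the 49671 gene rows of the count tables. They cover fatty acid entry, activation to acyl-CoA, the carnitine shuttle, mitochondrial and peroxisomal beta-oxidation, and cytosolic thiolase, alcohol and aldehyde steps, with the regulator Ppara. Single cells of mouse inner cell masses (ICMs) were sequenced with Smart-seq2, a full-length method without molecular identifiers. Oct4 heterozygotes of mixed background were mated with each other, the trophectoderm (TE) was removed by immunosurgery, and its lysate gave the genotype, so all genotypes came from the same kind of mating. MUT embryos, a constitutive null, lack both copies of Oct4 (Pou5f1), HET embryos carry a single copy and WT embryos both. At E3.5, the mid blastocyst, there were 58 WT/HET cells from 7 embryos (5 WT and 2 HET) and 29 MUT cells from 4 embryos. At E4.5, the implanting blastocyst, there were 19 MUT cells from 2 embryos, and 37 epiblast (EPI) and 29 primitive endoderm (PrE) cells from the same 6 WT/HET embryos (2 WT and 4 HET). Lineage at E4.5 was assigned by the authors from these transcriptomes. The embryo was the replicate: raw counts of all cells from 1 embryo were added up, by lineage at E4.5, which gave 25 sums.

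Fatty acids enter cells partly through CD36, are carried in the cytosol by fatty acid binding proteins, and are activated by acyl-CoA synthetases of the ACSL family. Long chains cross into mitochondria as carnitine esters, made by CPT1, moved by the translocase SLC25A20 and turned back to acyl-CoA by CPT2. Each round of beta-oxidation then runs through an acyl-CoA dehydrogenase, a hydratase, a second dehydrogenase and a thiolase, and electrons leave through the flavoprotein ETF. Peroxisomes shorten very long and branched chains with a separate set of enzymes. PPARA is a nuclear receptor that switches on many of these genes in liver, and the preimplantation embryo is known to draw on fatty acids as fuel.

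Levels below are counts per 1000000 counts assigned to genes (CPM) of an embryo sum, after one scaling by trimmed mean of M values over all 25 sums. Pou5f1 averaged 298 CPM in E3.5 WT/HET embryos, 4.31 in E3.5 MUT, 141 in EPI and 88.8 in PrE, and had 0 counts in E4.5 MUT, as its label requires. Embryo sums held 2736296 to 17453036 counts, and the smallest, the PrE sum of embryo 6, rested on 2 cells. The 12 TE markers together measured 5122 to 5548 CPM in E4.5 MUT embryos, none of them at 0, against 80.6 to 227 in EPI (Cdx2, Elf5 and Krt7 at 0) and 104 to 513 in PrE (Elf5 and Krt7 at 0). At E3.5 the same sum was 836 to 1559 CPM in MUT embryos (Gata2 at 0) and 244 to 950 in WT/HET. The 10 PrE markers summed to 522 to 788 CPM in E4.5 MUT (Sox7 and Foxa2 at 0), above EPI at 16.6 to 74 (none at 0) and below PrE at 3010 to 6781 (none at 0). At E3.5 they summed to 382 to 607 CPM in MUT (Sox17, Sox7 and Foxa2 at 0) and 93.5 to 298 in WT/HET (Foxa2 at 0), without overlap. The 10 EPI markers summed to 613 to 1349 CPM in E4.5 MUT (Pou5f1 and Gdf3 at 0), 2646 to 4819 in EPI (none at 0) and 373 to 528 in PrE (Fgf4 at 0). At E3.5 they summed to 549.7 to 1187 CPM in MUT (none at 0) and 1162 to 1994 in WT/HET (Fgf5 at 0), and edgeR called 6 of the 9 tested lower. At that stage it called 3 of 9 tested TE markers and 2 of 6 tested PrE markers higher in MUT, and 0 of either lower. TE markers without overlap at E4.5 and with overlap at E3.5, together with these PrE and EPI marker differences, thus moved with the MUT results below, and their part in these results was not tested. In a sum of cells, fewer cells with a transcript and less of it per cell cannot be told apart. Each stage stood on a plate of its own, so stage and plate cannot be told apart.

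Promoters are shown for at most 5 members for which RefSeq gave a start (GRCm38.p6). Members called in both E4.5 MUT comparisons came first, then those called in the test of the difference between stages, by adjusted p. Scp2, last in that order, is not shown. Each run is the 250 bases before the RefSeq start, 5′ to 3′ on the strand of the gene, and capitals mark a match to a searched motif. An entry was found for 32 of 39 members. The Adh1 window lies inside, and the Fabp3 and Hadha windows in part inside, the wider gene spans of the Ensembl annotation used for counting.
Adh1, chr3:138277335-138277584, plus strand: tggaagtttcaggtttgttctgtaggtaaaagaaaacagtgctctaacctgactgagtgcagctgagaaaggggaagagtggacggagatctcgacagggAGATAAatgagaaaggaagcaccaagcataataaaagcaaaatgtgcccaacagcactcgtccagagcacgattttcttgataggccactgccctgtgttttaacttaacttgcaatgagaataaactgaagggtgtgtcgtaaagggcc
Fabp3, chr4:130308488-130308737, plus strand: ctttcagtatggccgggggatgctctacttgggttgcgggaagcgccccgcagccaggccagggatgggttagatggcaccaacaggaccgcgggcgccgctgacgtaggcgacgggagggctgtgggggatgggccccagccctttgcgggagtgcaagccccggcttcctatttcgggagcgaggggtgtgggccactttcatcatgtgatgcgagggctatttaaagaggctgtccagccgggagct
Hadha, chr5:30154981-30155230, minus strand: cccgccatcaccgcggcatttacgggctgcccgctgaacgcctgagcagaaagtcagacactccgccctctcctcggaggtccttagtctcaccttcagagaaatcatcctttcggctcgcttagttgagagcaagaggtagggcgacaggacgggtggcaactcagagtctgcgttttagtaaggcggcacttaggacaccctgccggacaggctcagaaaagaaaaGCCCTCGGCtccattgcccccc
Acadl, chr1:66863310-66863559, minus strand: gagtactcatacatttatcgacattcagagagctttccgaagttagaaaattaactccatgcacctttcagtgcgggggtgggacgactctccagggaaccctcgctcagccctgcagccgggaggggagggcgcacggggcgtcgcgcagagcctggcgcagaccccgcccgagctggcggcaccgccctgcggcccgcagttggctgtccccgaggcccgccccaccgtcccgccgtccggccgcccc
Acaa1b, chr9:119157094-119157343, minus strand: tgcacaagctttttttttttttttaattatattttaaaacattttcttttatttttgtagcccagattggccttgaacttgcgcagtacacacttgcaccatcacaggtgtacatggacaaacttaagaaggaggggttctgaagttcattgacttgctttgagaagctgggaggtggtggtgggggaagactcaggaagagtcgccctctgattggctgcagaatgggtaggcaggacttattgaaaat
The motifs searched on both strands were AGATAA, which factors of the GATA family bind, GCCNNNGGC, bound by TFAP2, GGAATG, bound by TEAD, ATGCAAAT, the octamer bound by OCT factors, CACGTG, known as the E-box, and a direct repeat of AGGTCA with 1 base of any kind between both copies, of the kind that PPAR and RXR bind. AGATAA stood at −150 to −145 of Adh1, and the TFAP2 letters at −22 to −14 of Hadha, and no 2 matches overlapped. Among all 27025 promoters 10.3% held AGATAA, 13.6% GCCNNNGGC, 12.6% GGAATG, 1.61% ATGCAAAT, 6.05% CACGTG and 0.037% the direct repeat. Of the 32 members, 3 held AGATAA, 9 GCCNNNGGC, 6 GGAATG and 0 any of the other motifs. GC content differed widely among the 5 windows, from 41.6% in Acaa1b and 44.8% in Adh1 to 58.8% in Hadha, 64.8% in Fabp3 and 68.0% in Acadl, with a median of 59.6% over the 32 members and 52.0% over all promoters. These matches are descriptions of the letters in the window.

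**Figure D1:**
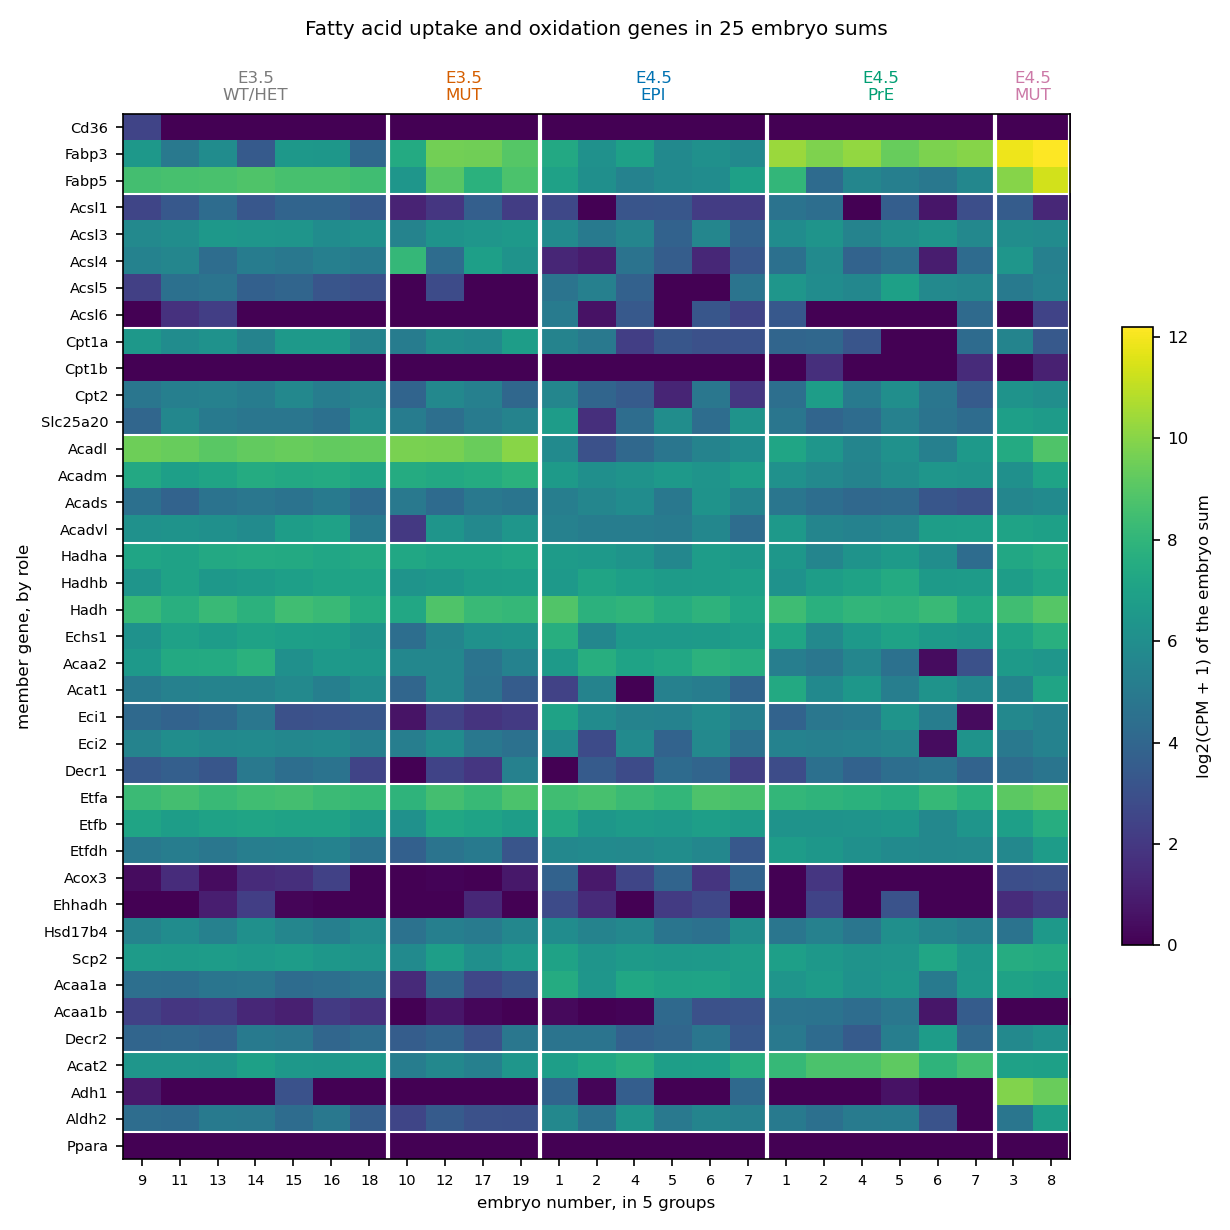
Level of each of the 39 genes, as log2(CPM + 1), in each of the 25 embryo sums, with genes in rows by role and embryos in columns by group. Fabp3 is brightest in E4.5 MUT and dark in E3.5 WT/HET and EPI, Acadl is bright in both E3.5 groups, and Cd36, Cpt1b and Ppara are at or near 0 throughout.

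The first question was whether these genes differ as a group between MUT and WT/HET ICMs, and whether they do so alike at both stages. At E3.5, 33 of the 39 members passed the filter on low counts, and in edgeR's quasi-likelihood test with Benjamini-Hochberg adjustment over all genes 2 rose and 3 fell in MUT. Among all genes tested there, 3.2% rose and 2.98% fell, 6.18% in all. Fabp3 and Acsl4 rose, and Acaa2, Eci1 and Aldh2 fell. The fitted changes of 9 members were above 0 and of 24 below 0, with a median log2 fold change of −0.36 against −0.02 over all genes. At E4.5, 36 members were tested against EPI, of which 5 rose (Fabp3, Fabp5, Acadl, Acadvl and Adh1) and 0 fell, beside 2.3% and 2.62% of all genes (4.92% in all). At an unadjusted p under 0.05 edgeR put 2 members lower there, and DESeq2 and limma each called 1 lower. Against PrE 37 were tested, of which 5 rose (Fabp3, Fabp5, Slc25a20, Etfa and Adh1) and 2 fell (Acat2 and Acaa1b), beside 1.74% and 2.07% of all genes (3.81% in all). The median log2 fold change was 0.70 against EPI and 0.75 against PrE, where all genes had medians of −0.03 and 0.05, and 27 and 29 members lay above 0. Both E4.5 comparisons share the 2 MUT embryos. The study itself examined fatty acid degradation enzymes in these samples, so these counts are not independent evidence of a direction.

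Here and below, called, rose and fell refer to edgeR unless another tool is named. At E3.5 DESeq2 called the same 5 members and also put Acadl higher and Acaa1a, Acaa1b, Acat2, Acsl5 and Echs1 lower. There limma, with cells weighted equally, called those 5 lower too, along with Acat1 and Decr1, and did not call Acsl4. Against EPI DESeq2 added Hadha, Etfa, Scp2 and Decr2 as higher and Acaa1b as lower, while limma added Acaa2 as lower and did not call Acadl. Against PrE DESeq2 added Acadl and Etfb as higher and did not call Fabp5, and limma did not call Acaa1b. These tools also called more genes at large than edgeR did. Of the 12075, 12953 and 12246 genes tested at E3.5, against EPI and against PrE, DESeq2 called 1607, 1691 and 1219 in either direction. There limma called 1353, 1479 and 1097. For counts at an unadjusted p under 0.05, here and below, the share over all genes is not given.

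Groups of embryo sums that do not overlap at all gave a second view of the same members. At E3.5, 1 member had every MUT embryo above every WT/HET embryo and 5 had every MUT embryo below, where 3.47% and 4.02% of all genes did so. Against EPI these numbers were 14 and 1, beside 14.7% and 9.36% of all genes. Against PrE they were 15 and 3, beside 14.2% and 7.87%. With 2 MUT embryos such separation is common at E4.5 for genes at large.

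Calls depended on single embryos and on the choice of controls. Of 38 calls of a member in any of the 6 comparisons, 15 remained when each embryo was left out in turn. When HET embryos were left out of the controls (2 against 2 at E4.5), 11 of 37 calls remained. Of these, 5 of 25 were at E4.5, those of Adh1 and Fabp3 against EPI and the whole ICM and of Adh1 against PrE. The others that remained were Acaa2, Eci1 and Fabp3 at E3.5, and Acadl, Adh1 and Fabp5 in the test between stages. The embryos whose absence ended the call of a member are given beside it, for Scp2 in the test between stages as their number. The size of a called change moved by more than 1.5 times without 1 embryo for 6 members, Fabp5, Acadl, Acsl4, Aldh2, Adh1 and Acaa1b, and these sizes are given with the genes.

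**Figure D2:**
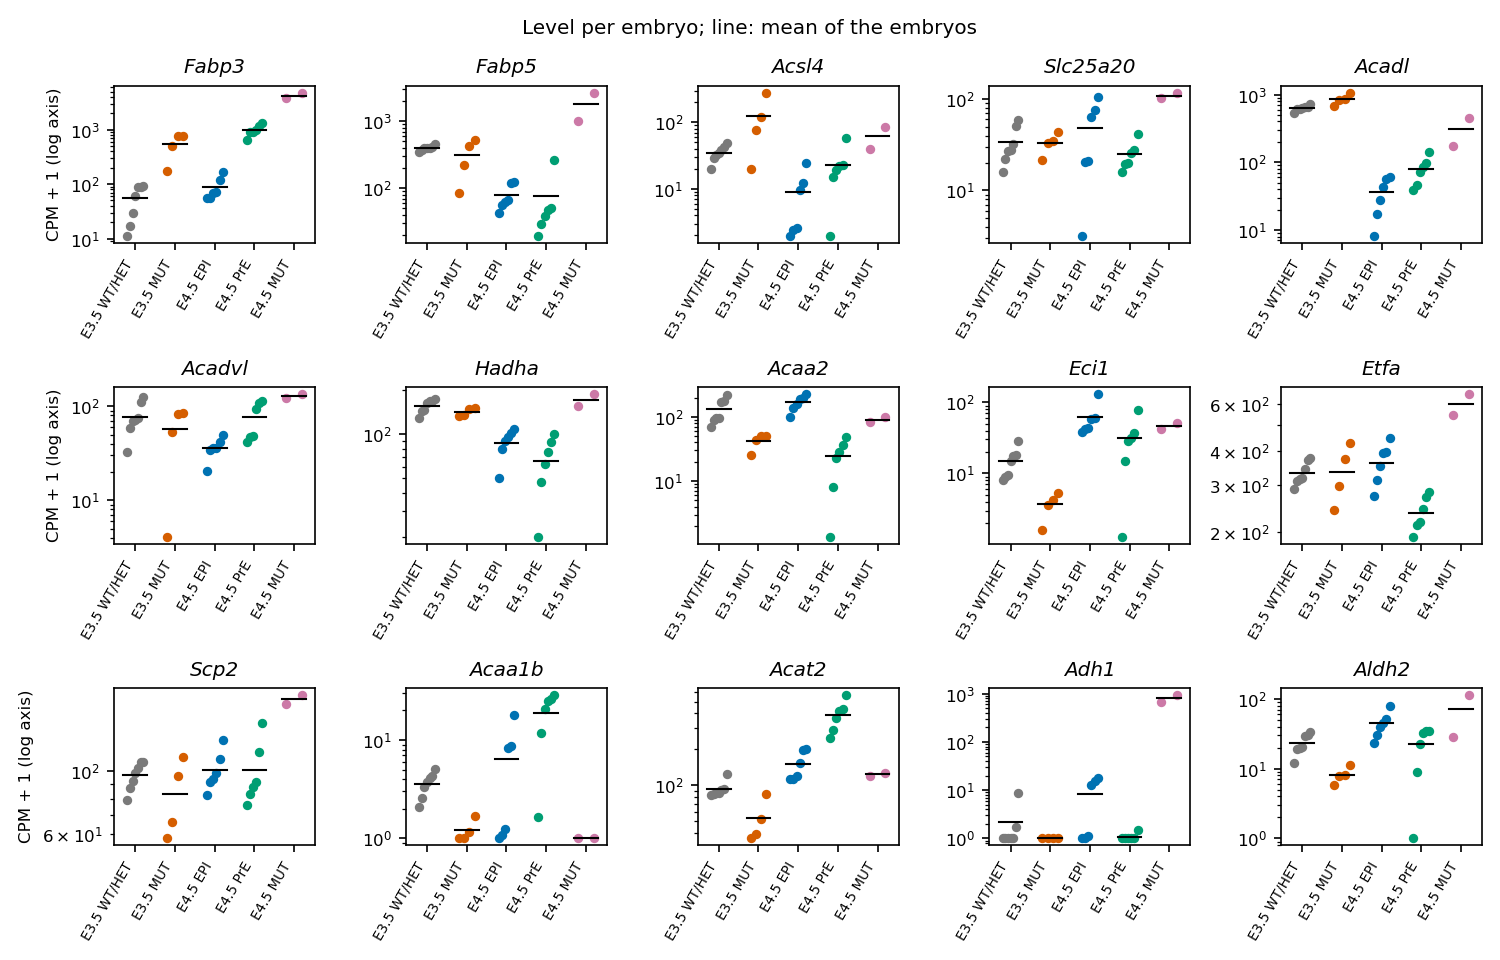
Level per embryo of the 15 members called in a MUT comparison or in the difference between stages, as CPM + 1 on a log axis, with 1 point per embryo and a line at the mean of the group. In Fabp3 and Fabp5 both E4.5 MUT embryos lie above all EPI and PrE sums, and in Acaa1b both are at 0.

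Uptake and binding gave the largest difference in summed level among the steps, at E4.5. Sums of several genes are given as mean ± SD over the embryos of a group. Fabp3, Fabp5 and Cd36 together measured 6013 ± 1802 CPM (n = 2) in E4.5 MUT, against 167 ± 64.5 (n = 6) in EPI and 1064 ± 309.5 (n = 6) in PrE. At E3.5 the sum was 863 ± 435 CPM (n = 4) in MUT and 452 ± 43.7 (n = 7) in WT/HET, and the MUT range of 258 to 1293 enclosed the WT/HET range of 361 to 487.

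Fabp3 (ENSMUSG00000028773, chr4:130308595-130315463, plus strand) encodes the heart-type fatty acid binding protein and had the highest mean level per kb of exon of all members, 1429 CPM per kb over the 5 groups. It measured 174, 505, 752 and 775 CPM in the 4 E3.5 MUT embryos and 10.0 to 89.4 CPM (median 60.2) in the 7 WT/HET embryos. Every MUT embryo lay above every WT/HET embryo. The log2 fold change was 3.35 ± 0.58 (SE), adjusted p = 0.0063, and the call remained without any single embryo. At E4.5 it measured 3730 and 4664 CPM in the MUT embryos, 54.1 to 165 CPM (median 69.5) in EPI and 653 to 1322 CPM (median 951) in PrE. Both MUT embryos were above all others, PrE lay between, and EPI was lowest with no overlap between groups. The log2 fold change of MUT was 5.54 ± 0.39 (adjusted p = 8.0e-05) against EPI and 2.09 ± 0.22 (adjusted p = 0.0011) against PrE, and both calls remained without any single embryo. Annotated exons of Gm10570 and Zcchc17 overlap 19.6% of its exon length, and read pairs in more than one gene were set apart in counting.

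Fabp5 (ENSMUSG00000027533, chr3:10012548-10016607, plus strand), the epidermal-type binding protein, behaved differently between the stages. It measured 84.3, 222, 420.3 and 518 CPM in E3.5 MUT embryos and 345 to 455 CPM (median 400) in WT/HET, with overlapping groups and a log2 fold change of −0.34 ± 0.34 (adjusted p = 0.63). At E4.5 the MUT embryos measured 1009 and 2623 CPM, EPI 41.2 to 124 CPM (median 63.6) and PrE 18.2 to 268 CPM (median 42.2). Both MUT embryos were far above all EPI and PrE sums. The log2 fold change was 4.52 ± 0.43 (adjusted p = 0.00051) against EPI, kept without any single embryo, and 4.60 ± 0.85 (adjusted p = 0.018) against PrE, lost without embryo 8 (adjusted p = 0.11). Without embryo 8 the log2 fold change was 3.68 against EPI and 3.78 against PrE, and against PrE it was 5.66 without embryo 1 and 5.21 without embryo 3. Cd36, the scavenger receptor, was found in 1 of 58 E3.5 WT/HET cells and in no other cell.

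Activation enzymes differed less. The 5 ACSL genes summed to 202 ± 89.4 CPM in E3.5 MUT and 131 ± 18.4 in WT/HET, and to 166 ± 29.9 in E4.5 MUT, 73.1 ± 31.6 in EPI and 167 ± 48 in PrE. Of 4 tested at E3.5 edgeR called only Acsl4, where DESeq2 also called Acsl5 lower and limma called Acsl5 alone. Of 5 tested at E4.5 edgeR called 0 in either comparison, as did DESeq2 and limma, with 1 (against EPI) and 0 (against PrE) at an unadjusted p under 0.05. Acsl4 (chrX:142317993-142390535, minus strand), which prefers arachidonic acid, measured 18.8, 75.8, 117 and 274 CPM in E3.5 MUT and 19.1 to 47.6 CPM (median 34.1) in WT/HET. The groups overlapped, since 1 MUT embryo lay below all WT/HET embryos and the other 3 above them. Its log2 fold change was 1.86 ± 0.49 (adjusted p = 0.043), and the call was lost without 9 of the 11 embryos (9, 10, 11, 13, 14, 15, 16, 17 or 18; adjusted p 0.059 to 0.19), with a log2 fold change of 1.08 without embryo 10. In E4.5 embryos it measured 38.9 and 84.3 CPM in MUT, 0.933 to 23.7 CPM (median 5.17) in EPI and 0.977 to 56.7 CPM (median 19.8) in PrE, with log2 fold changes of 2.92 and 1.48 that were not called.

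Acsl3, a synthetase of lipid droplets and endoplasmic reticulum, had the highest level per kb among the activation genes. It measured 42.5, 75.5, 83.6 and 95.4 CPM in E3.5 MUT, 52.4 to 89.7 CPM (median 68.3) in WT/HET, 13.3 to 55.1 CPM (median 37.7) in EPI, 42.7 to 78.7 CPM (median 61.3) in PrE and 58.4 and 60.9 in E4.5 MUT. Its largest fitted MUT difference, 0.79 on the log2 scale against EPI, was not called. Acsl1 averaged between 4.87 (EPI) and 11.4 CPM (E3.5 WT/HET). Acsl5 averaged 1.45 CPM in E3.5 MUT and 13.3 in WT/HET, a log2 fold change of −3.15 ± 1.31 (adjusted p = 0.18), and 68.3 in PrE, its highest group. Acsl6 had 0 counts in E3.5 MUT and at most 9.41 CPM on average, in EPI.

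The carnitine shuttle had 1 called member in the MUT comparisons. Its 4 genes summed to 207 ± 41.9 CPM in E4.5 MUT, 81.3 ± 58.7 in EPI and 77.5 ± 36.9 in PrE, and to 128 ± 35.7 in E3.5 MUT and 141 ± 20.4 in WT/HET. Slc25a20 (chr9:108662088-108684641, plus strand), the carnitine-acylcarnitine translocase, measured 102 and 116 CPM in E4.5 MUT, 2.13 to 106 CPM (median 41.3) in EPI and 14.8 to 40.4 CPM (median 21.8) in PrE. Both MUT embryos lay above all PrE sums, while the highest EPI sum lay between them. It rose against PrE by 2.19 ± 0.46 (adjusted p = 0.031), a call lost without embryo 1, 2, 3, 4, 7 or 8 (adjusted p 0.053 to 0.23). That call was also lost when all groups were fitted together (0.0503), and the change against EPI was 1.17 ± 0.95 (adjusted p = 0.58). At E3.5 it measured 20.8, 32.2, 33.5 and 42.2 CPM in MUT and 15.1 to 58.1 CPM (median 27) in WT/HET, with a log2 fold change of 0.00.

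Cpt2, the carnitine palmitoyltransferase of the inner membrane, led this step per kb. It measured 64.6 and 76.5 CPM in E4.5 MUT, 1.38 to 46.7 CPM (median 12.5) in EPI, 10.3 to 108 CPM (median 29) in PrE, 14.3, 15.6, 39 and 51.1 in E3.5 MUT and 26.4 to 50.5 CPM (median 37.5) in WT/HET. Its log2 fold changes of −0.33 at E3.5, 2.01 against EPI and 0.71 against PrE were not called. Cpt1a, the liver form that commits long chains to the mitochondrion, averaged 70.4 ± 22.4 CPM in E3.5 WT/HET and 65.7 ± 32.4 in MUT, and 16.4 ± 15.7, 9.38 ± 7.96 and 27.2 ± 24.7 in EPI, PrE and E4.5 MUT. None of its 3 MUT comparisons was called (log2 −0.08, 0.71 and 1.54). Cpt1b, the muscle form, was detected in 3 cells of all, 2 PrE and 1 E4.5 MUT. An annotated gene that overlaps 81.4% of its exon length has no row in the counts.

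**Figure D3:**
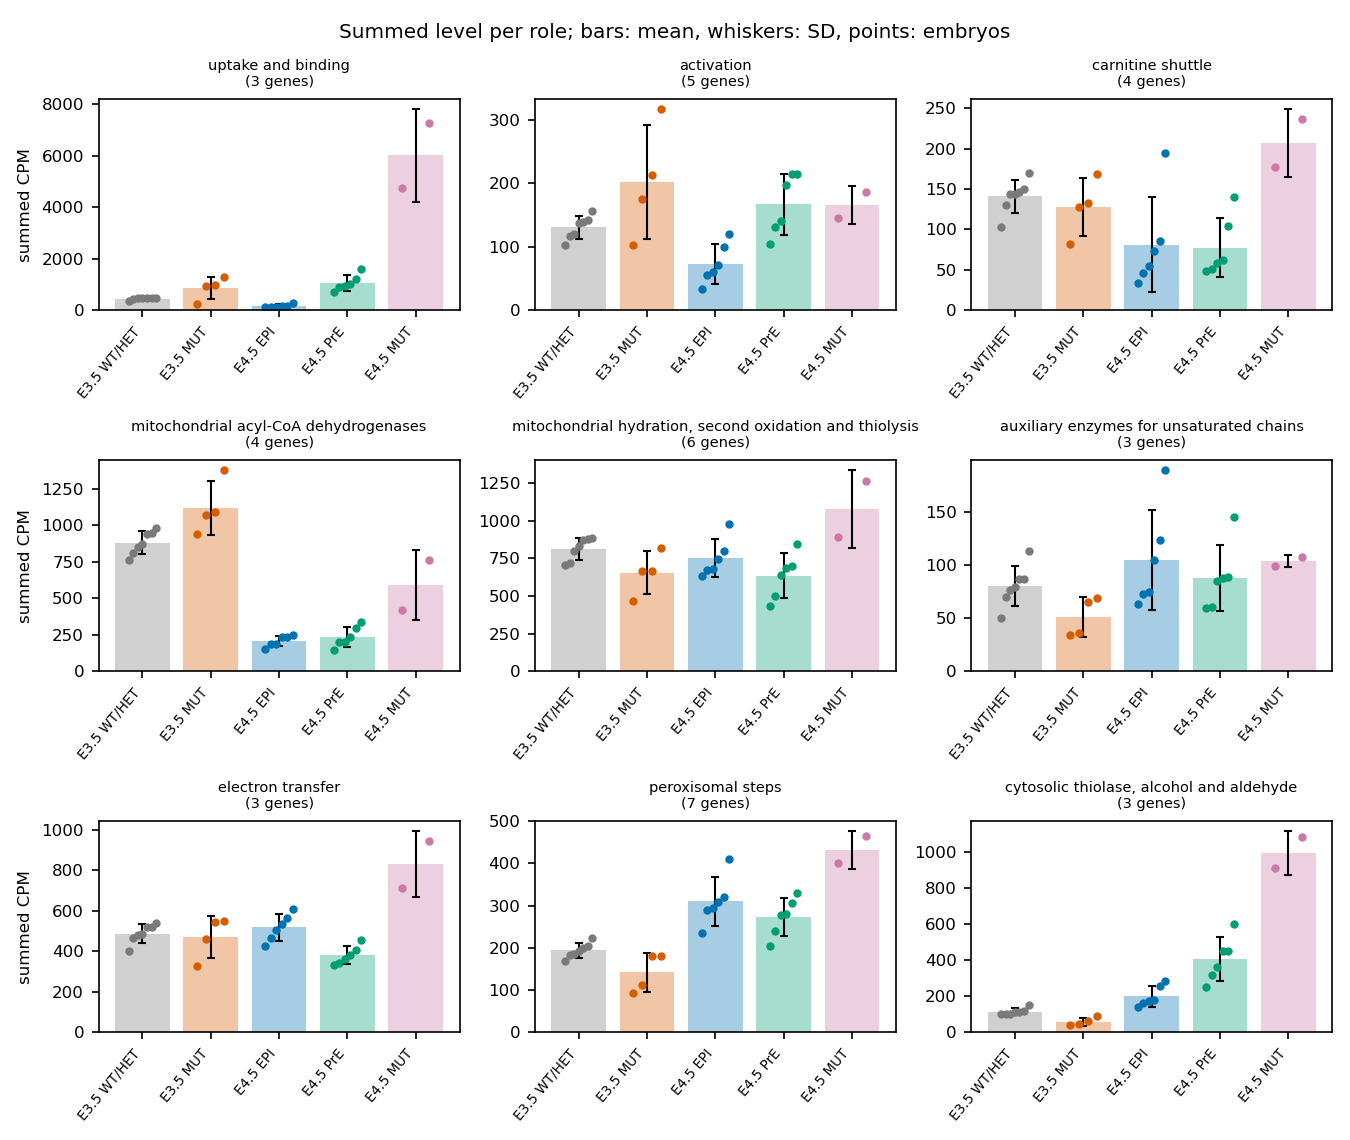
Summed CPM of the members of each role (y axis), with bars at the mean, whiskers at the SD and 1 point per embryo, in the 5 groups. Uptake and binding reaches 4738 to 7287 CPM in E4.5 MUT embryos, and the acyl-CoA dehydrogenases are higher in both E3.5 groups than in all E4.5 EPI and PrE sums.

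Mitochondrial acyl-CoA dehydrogenases catalyse the first oxidation, with ACADVL, ACADL, ACADM and ACADS taking progressively shorter chains. Their sum was 880 ± 79.1 CPM in E3.5 WT/HET and 1118 ± 186 in E3.5 MUT, but 207 ± 35.9 in EPI, 235 ± 69.3 in PrE and 591 ± 239.9 in E4.5 MUT. Acadl (ENSMUSG00000026003, chr1:66830839-66863277, minus strand), the long-chain enzyme, made up most of that pattern. It measured 677, 829, 856 and 1046 CPM in E3.5 MUT and 534 to 728 CPM (median 623) in WT/HET, and its log2 fold change of 0.46 ± 0.13 (adjusted p = 0.059) was not called by edgeR but was by DESeq2. At E4.5 it measured 173 and 448 CPM in MUT, 7.06 to 60.6 CPM (median 34.9) in EPI and 38.1 to 143 CPM (median 78) in PrE. The E4.5 MUT embryos lay above every EPI and PrE sum and below every E3.5 embryo. Acadl rose against EPI by 3.13 ± 0.65 (adjusted p = 0.026), lost without embryo 5 or 8 (adjusted p 0.052 to 0.25), at 2.29 without embryo 8, and with cells weighted equally (0.071), and the change against PrE was 1.96 ± 0.49 (adjusted p = 0.061).

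Acadvl (chr11:70010183-70015411, minus strand), the very-long-chain enzyme, measured 122 and 134 CPM in E4.5 MUT, 19.7 to 49 CPM (median 34.9) in EPI and 40.8 to 113 CPM (median 70.6) in PrE. The MUT embryos exceeded all EPI and all PrE sums. It rose against EPI by 1.83 ± 0.37 (adjusted p = 0.025), lost without embryo 3 or 8 (adjusted p 0.12 to 0.18) and when all groups were fitted together (0.050), and was not called against PrE (0.78 ± 0.46, adjusted p = 0.45). At E3.5 it measured 3.04, 52.7, 82.1 and 84.8 CPM in MUT and 31.7 to 124 CPM (median 69.7) in WT/HET, with overlap. Dvl2 overlaps 42.9% of its exon length, so its level is uncertain. Acadm, the medium-chain enzyme, averaged 152 ± 22.3 CPM in E3.5 WT/HET and 185 ± 25.4 in MUT, and 88, 64.7 and 100.5 in EPI, PrE and E4.5 MUT, with no MUT call. Acads, the short-chain enzyme, averaged 22.8, 25.9, 48.7, 16.1 and 51.9 CPM in E3.5 WT/HET, E3.5 MUT, EPI, PrE and E4.5 MUT, also with no MUT call.

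Hydration, second oxidation and thiolysis in the mitochondrion had opposite fitted signs at the stages. Of its 6 genes, 5 lay below 0 at E3.5 (median log2 fold change −0.50, 1 called), and 5 lay above 0 against EPI and 6 against PrE (medians 0.67 and 0.76). At E4.5 edgeR called 0 of them in either comparison. At an unadjusted p under 0.05 it put 1 higher and 1 lower against EPI, and 2 higher and 0 lower against PrE. Against EPI DESeq2 called 1 higher and limma 1 lower. The sum was 813 ± 75 CPM in E3.5 WT/HET, 656 ± 144 in E3.5 MUT, 750.5 ± 126 in EPI, 636 ± 149 in PrE and 1078 ± 260.5 in E4.5 MUT. Acaa2, the mitochondrial 3-ketoacyl-CoA thiolase, measured 24.7, 41.9, 48.7 and 49.3 CPM in E3.5 MUT and 69.2 to 216 CPM (median 96.4) in WT/HET. Every MUT embryo lay below every WT/HET embryo, with a log2 fold change of −1.64 ± 0.34 (adjusted p = 0.014), which remained without any single embryo. In E4.5 embryos it measured 82.3 and 97.3 CPM in MUT, 97.8 to 225 CPM (median 173) in EPI and 0.326 to 47.8 CPM (median 24.8) in PrE. MUT lay between the lineages without overlap, and neither change was called (−0.92 ± 0.35, adjusted p = 0.18 and 1.95 ± 1.02, adjusted p = 0.39).

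Hadha (chr5:30118304-30155162, minus strand), the alpha subunit of the trifunctional protein, measured 132, 134, 147 and 150.1 CPM in E3.5 MUT and 129 to 172.3 CPM (median 162) in WT/HET. At E4.5 it measured 155 and 187 CPM in MUT, 49.4 to 107 CPM (median 91.9) in EPI and 18.8 to 99.8 CPM (median 68.5) in PrE. The E3.5 groups overlapped, and both E4.5 MUT embryos were above all EPI and PrE sums, but edgeR called it in none of these 3 comparisons (−0.12 ± 0.13, adjusted p = 0.66, 0.95 ± 0.31, adjusted p = 0.11 and 1.41 ± 0.50, adjusted p = 0.17). Its partner subunit Hadhb averaged 111, 97, 113, 114 and 129 CPM in E3.5 WT/HET, E3.5 MUT, EPI, PrE and E4.5 MUT. Hadh, the dehydrogenase for shorter hydroxyacyl chains, led this step per kb. It measured 156, 280, 305 and 456 CPM in E3.5 MUT, 179.8 to 349 CPM (median 294) in WT/HET, 149.5 to 478 CPM (median 228) in EPI, 171 to 342 CPM (median 251) in PrE and 354 and 501 in E4.5 MUT, with no call. Echs1, the short-chain hydratase, averaged 53.2 CPM in E3.5 MUT and 106 in WT/HET (−0.97 ± 0.31, adjusted p = 0.085), and Acat1, the mitochondrial acetoacetyl-CoA thiolase, 24.4 and 43.4 CPM (−0.82 ± 0.36, adjusted p = 0.21).

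Auxiliary enzymes move double bonds so that unsaturated chains can be oxidised. All 3 lay below 0 at E3.5, and the sum was 51.1 ± 18.6 CPM in MUT and 80.2 ± 19.1 in WT/HET. Eci1 (chr17:24426641-24439348, plus strand), a mitochondrial enoyl-CoA isomerase, measured 0.578, 2.56, 3.24 and 4.27 CPM in E3.5 MUT and 7.08 to 27.8 CPM (median 13.9) in WT/HET. Every MUT embryo lay below every WT/HET embryo and the log2 fold change was −2.38 ± 0.59 (adjusted p = 0.033). That call was lost without embryo 9, 10, 11, 13, 14, 17 or 19 (adjusted p 0.054 to 0.080), and with no filter on low counts (0.055). At E4.5 it measured 41.5 and 49.9 CPM in MUT, 36.8 to 129 CPM (median 49.9) in EPI and 0.263 to 78 CPM (median 28.8) in PrE, with overlap and no call. Eci2 averaged 36.7 CPM in E3.5 MUT and 50.5 in WT/HET, and Decr1, the mitochondrial dienoyl-CoA reductase, 11.8 and 15.5 CPM, neither of them called by edgeR at either stage, while limma called Decr1 lower at E3.5.

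Electron transfer genes had similar sums in both E3.5 groups and larger sums in E4.5 MUT. Etfa, Etfb and Etfdh summed to 470.3 ± 105 CPM in E3.5 MUT and 487 ± 45 in WT/HET, and to 830.5 ± 164 in E4.5 MUT, 518 ± 65.7 in EPI and 380.5 ± 44.4 in PrE. Etfa (chr9:55454508-55512243, minus strand), the alpha subunit of the electron transfer flavoprotein, measured 242, 296, 372 and 428 CPM in E3.5 MUT and 289 to 376 CPM (median 316) in WT/HET, with a log2 fold change of 0.03. In E4.5 embryos it measured 546 and 651 CPM in MUT, 271 to 447 CPM (median 373) in EPI and 191 to 282 CPM (median 230.3) in PrE. Both E4.5 MUT embryos were above all EPI and PrE sums. It rose against PrE by 1.35 ± 0.20 (adjusted p = 0.0066), lost without embryo 8 (adjusted p = 0.072), and was not called against EPI (0.70 ± 0.21, adjusted p = 0.091). Etfb (58.2% of its exon length shared with Gm45233 and Mir7051) averaged 74.9 CPM in PrE and 154 in E4.5 MUT (1.04 ± 0.31, adjusted p = 0.095), and Etfdh, which passes the electrons to ubiquinone, 69.7 and 78.4.

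Peroxisomal members lay below 0 at E3.5 in all 6 tested cases, with a median log2 fold change of −1.01, and edgeR called 0 of them. At an unadjusted p under 0.05 2 of them were lower in MUT, and DESeq2 and limma each called 2 lower. The sum of the 7 genes was 142 ± 45.5 CPM in E3.5 MUT and 194 ± 17.9 in WT/HET, and 432 ± 44.6 in E4.5 MUT, 309.6 ± 57.4 in EPI and 274 ± 45.3 in PrE. Against EPI 3 lay above and 4 below 0, and against PrE 6 above and 1 below. Against EPI edgeR called 0 of them, with 2 higher and 1 lower at an unadjusted p under 0.05, DESeq2 called 2 higher and 1 lower, and limma called 0.

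Acaa1b (chr9:119148023-119157093, minus strand), a peroxisomal 3-ketoacyl-CoA thiolase, measured 0, 0, 0.171 and 0.686 CPM in E3.5 MUT and 1.08 to 4.13 CPM (median 2.76) in WT/HET, with every MUT embryo below (log2 −3.45 ± 1.07, adjusted p = 0.076). It had 0 counts in both E4.5 MUT embryos, while EPI measured 0 to 16.9 CPM (median 3.75) and PrE 0.651 to 27.6 CPM (median 21.9). The call against PrE had an adjusted p of 0.044 and was lost without embryo 1, 2, 3, 4, 5, 7 or 8 (adjusted p 0.070 to 0.23) and with cells weighted equally (0.13), and against EPI the adjusted p was 0.24. Dlec1 overlaps 11.4% of its exon length, and read pairs that aligned to more than one place, as those shared with its paralog Acaa1a would, were not counted. Acaa1a averaged 7.82 CPM in E3.5 MUT and 22.7 in WT/HET (−1.52 ± 0.47, adjusted p = 0.074), every MUT embryo again below, and 130.2, 77.4 and 124 in EPI, PrE and E4.5 MUT.

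Scp2 (chr4:108043839-108144998, minus strand), which encodes sterol carrier protein and a thiolase for branched chains, led the peroxisomal genes per kb. It measured 56.8, 65.3, 95.5 and 112 CPM in E3.5 MUT, 78.3 to 107 CPM (median 97.2) in WT/HET, 81.3 to 128 CPM (median 95.6) in EPI, 75 to 148 CPM (median 88.6) in PrE and 173 and 185 in E4.5 MUT. Both E4.5 MUT embryos lay above all EPI and PrE sums, without a call by edgeR against either lineage (0.81 ± 0.25, adjusted p = 0.093 and 0.86 ± 0.31, adjusted p = 0.18), and DESeq2 called it higher against EPI. Hsd17b4, the D-bifunctional protein, averaged 50.6, 35.4, 44.1, 40.1 and 58.2 CPM in E3.5 WT/HET, E3.5 MUT, EPI, PrE and E4.5 MUT, and Decr2 19.7, 15.2, 18.9, 35.9 and 61.3. Acox3 (at most 8.16 CPM on average, in EPI) and Ehhadh (at most 2.71, also in EPI) were low in every group.

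Among the cytosolic thiolase, alcohol and aldehyde genes, each member followed its own course. Adh1 (ENSMUSG00000074207, chr3:138260991-138290698, plus strand), a class I alcohol dehydrogenase that oxidises ethanol and retinol, measured 678 and 928 CPM in the E4.5 MUT embryos. It measured 0 to 17.1 CPM (median 5.84) in EPI, 0 to 0.502 CPM (median 0) in PrE, 0 in E3.5 MUT and 0 to 7.54 CPM (median 0) in E3.5 WT/HET. Both E4.5 MUT embryos exceeded every other sum. The log2 fold change was 6.81 ± 1.53 (adjusted p = 0.036) against EPI, lost without embryo 2, 3, 4, 7 or 8 (adjusted p 0.056 to 0.14), and the call against PrE, whose sums held 5 counts in all, every one in embryo 5, so that PrE was at 0 without it, had an adjusted p of 8.4e-05 and was kept without any single embryo. Aldh2 (chr5:121566027-121593824, minus strand), the mitochondrial aldehyde dehydrogenase, measured 4.77, 6.75, 7.09 and 10.2 CPM in E3.5 MUT and 11.1 to 32 CPM (median 19.6) in WT/HET, with no overlap and a log2 fold change of −1.62 ± 0.36 (adjusted p = 0.021), lost without embryo 10 or 17 (adjusted p 0.056 each). At E4.5 it measured 27 and 112 CPM in MUT, 22.3 to 77.3 CPM (median 41.2) in EPI and 0 to 33.2 CPM (median 26.4) in PrE, with overlap and no call.

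Acat2 (chr17:12942890-12960747, minus strand), the cytosolic acetoacetyl-CoA thiolase that feeds sterol synthesis, measured 119 and 126 CPM in E4.5 MUT, 112 to 200 CPM (median 134) in EPI and 245 to 564 CPM (median 390.2) in PrE. Both MUT embryos were below all PrE sums. It fell against PrE, with a log2 fold change of −1.64 ± 0.34 (adjusted p = 0.028), lost without embryo 2, 3, 4, 7 or 8 (adjusted p 0.051 to 0.19), and the change against EPI was −0.31 ± 0.32 (adjusted p = 0.69). At E3.5 it measured 35, 38, 51.1 and 83.2 CPM in MUT and 81.1 to 122 CPM (median 85.4) in WT/HET (−0.80 ± 0.24, adjusted p = 0.066). Ppara had 0 counts in every cell, so no member level here can be set beside that of Ppara. Other regulators were among the further pathway genes below.

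The 5 E3.5 calls were also sensitive to which samples shared the fit. When all 5 groups were fitted in 1 model, Fabp3 was the only member still called at E3.5, and the adjusted p of the other 4 was 0.18 to 0.38.

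**Figure D4:**
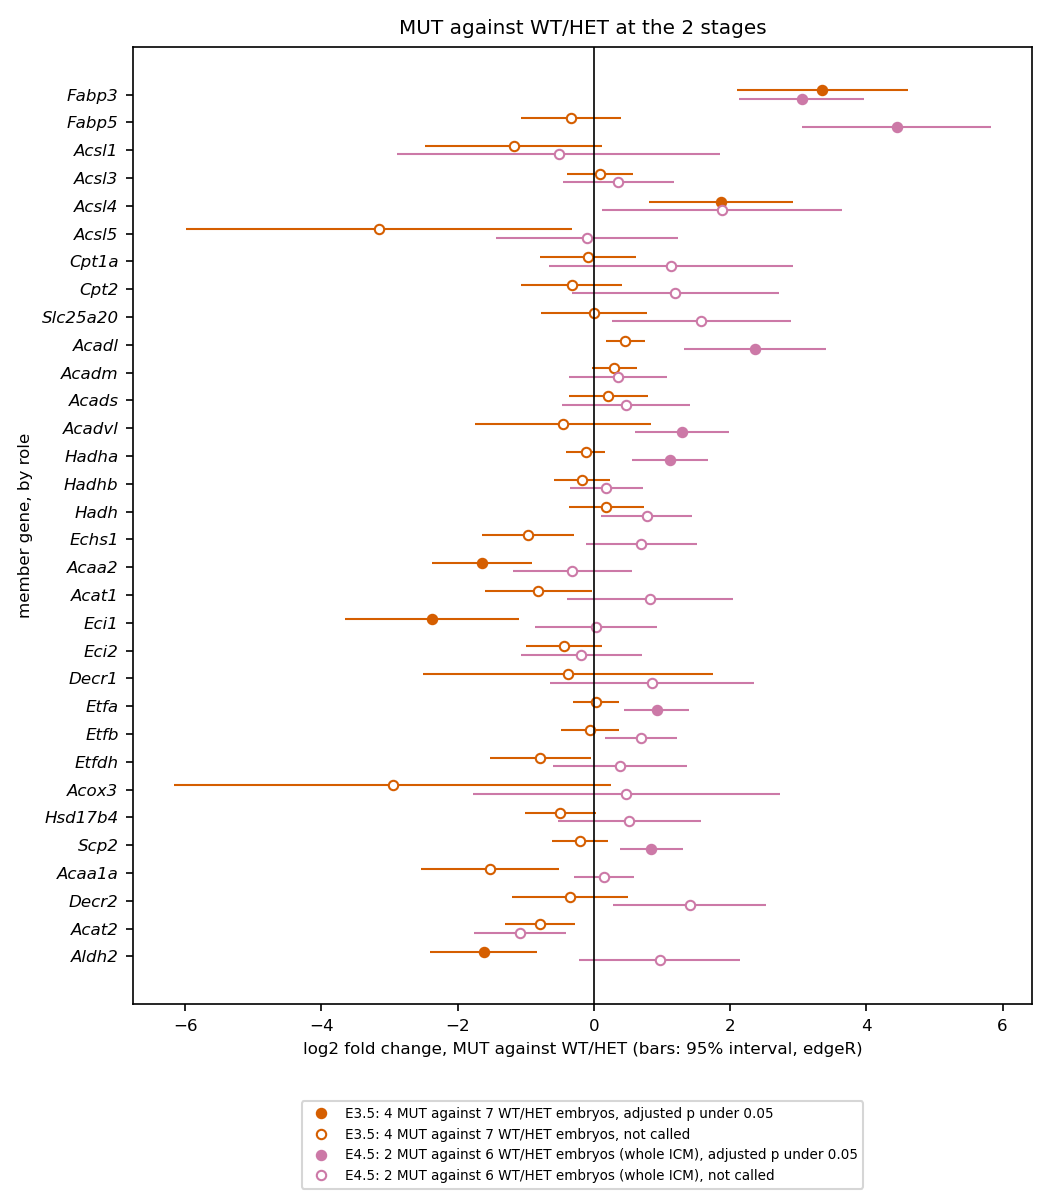
Log2 fold change of MUT against WT/HET at E3.5 (4 against 7 embryos) and at E4.5 (2 against 6 embryos, EPI and PrE cells summed), with 95% intervals from edgeR and filled points for calls at an adjusted p under 0.05, for 32 members. Acaa1b is left out since it had 0 counts in E4.5 MUT. Many E3.5 points lie left of 0 and their E4.5 partners right of it.

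To set both stages side by side, EPI and PrE cells of an E4.5 embryo were summed to a whole ICM. The mix of lineages in such a sum follows the cells sampled, such as 7 EPI and 2 PrE cells in embryo 6, and 5 and 7 in embryo 2. Members that differ between EPI and PrE carry this mix, and its part in the results below was not tested. Against these sums 8 of 37 tested members rose in MUT (Fabp3, Fabp5, Acadl, Acadvl, Hadha, Etfa, Scp2 and Adh1) and 1 fell (Acaa1b), beside 3.1% and 4.27% of all genes (7.37% in all), and the median log2 fold change was 0.70 against −0.10 over all genes. Hadha (1.12 ± 0.25, adjusted p = 0.026) and Scp2 (0.84 ± 0.20, adjusted p = 0.037) were called in this comparison of levels alone. The calls of Fabp3, Fabp5, Adh1 and Acaa1b were kept without any single embryo, although the log2 fold change of Fabp5 went from 4.45 to 3.59 without embryo 8 and that of Adh1 from 7.72 to 8.41 without embryo 7. Acadl, whose log2 fold change of 2.36 went to 1.51 without embryo 8, was lost without embryo 8 (adjusted p = 0.18), Acadvl without embryo 2, 3, 4, 5, 7 or 8 (adjusted p 0.059 to 0.17) and Etfa without embryo 2, 3, 4, 7 or 8 (adjusted p 0.055 to 0.16). Hadha was lost without embryo 3, 4, 5 or 8 (adjusted p 0.051 to 0.15) and Scp2 without embryo 2, 3, 4, 5, 6, 7 or 8 (adjusted p 0.053 to 0.19). With cells weighted equally, limma did not call Acadl (adjusted p = 0.10), Acadvl (0.062), Hadha (0.23) or Scp2 (0.36). Acadvl was also lost in 1 fit of all groups (0.21) and Scp2 with no filter on low counts (0.068), and DESeq2 and limma both called Acat2 lower as well. Of the 33 members tested at both stages, 18 (54.5%) had a fitted change below 0 at E3.5 and above 0 at E4.5, where 22.8% of 11333 genes did. The reverse, above and then below 0, was seen for 0 members and 21.5% of genes. A further 9 (27.3%) were above 0 at both stages and 6 (18.2%) below 0 at both, beside 25.9% and 29.8% of genes. These are signs of fitted values, most of them not called.

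The difference itself was tested as the interaction of stage and genotype over all 19 embryos. Of 37 tested members, 6 had a higher MUT effect at E4.5 and 1 a lower effect, beside 2.71% and 2.75% of all genes (5.46% in all), and 34 of 37 lay above 0, with a median of 1.2 against −0.08 over all genes. Fabp5 differed on the log2 scale by 4.76 ± 0.74 (adjusted p = 0.00075), kept without any single embryo (3.93 without embryo 8). Hadha differed by 1.23 ± 0.25 (adjusted p = 0.0074), also kept without any single embryo but lost with WT embryos as the only controls (adjusted p = 0.097). Acadl differed by 1.88 ± 0.45 (adjusted p = 0.019), lost without embryo 8 (adjusted p = 0.28), where the difference was 1.05. Aldh2, lower in MUT at E3.5, differed by 2.55 ± 0.62 (adjusted p = 0.021), lost without embryo 8 (adjusted p = 0.41), where the difference was 1.21, against 3.24 without embryo 3. Scp2 differed by 1.02 ± 0.29 (adjusted p = 0.046), a call lost without 15 of 19 embryos (adjusted p 0.050 to 0.17). Adh1, with 0 counts in E3.5 MUT, was called at an adjusted p of 0.019 (0.094 without embryo 15), and Acaa1b, with 0 counts in E4.5 MUT, was called lower at 0.030, lost without embryo 3, 8 or 12 (adjusted p 0.068 to 0.15). The fitted sizes of the last 2, which are no bounds, went from 14.91 to 11.67 without embryo 15 and 15.56 without embryo 7, and from −7.06 to −5.42 without embryo 12. With cells weighted equally, the adjusted p was 0.092 for Acadl, 0.11 for Aldh2, 0.10 for Hadha, 0.19 for Scp2 and 0.60 for Acaa1b. Fabp3, higher in MUT at both stages, had a difference of −0.33 ± 0.87 (adjusted p = 0.97), with a 95% interval of −2.15 to 1.5. The E4.5 control sums of this test also carry the mix of EPI and PrE cells sampled, as for Fabp3, which differs between these lineages. Since the E4.5 MUT effect rests on 2 embryos and each stage stood on a plate of its own, a difference of stage and a difference of plate cannot be told apart.

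Summed over all 39 members, levels were 3292 ± 216 CPM in E3.5 WT/HET, 3689 ± 741 in E3.5 MUT, 2409 ± 405 in EPI, 3328 ± 424 in PrE and 10420 ± 2323 in E4.5 MUT. Without Fabp3, Fabp5 and Adh1 they were 2840 ± 178, 2826 ± 383, 2236 ± 342, 2264 ± 266 and 3599 ± 698 CPM. The 3 genes thus carried most of the E4.5 MUT excess. They were singled out after their values were seen.

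The lineages of the WT/HET embryos gave a reference for these MUT values. Between EPI and PrE sums, 3 of 35 tested members were higher in EPI (Acads, Acaa2 and Etfa) and 2 lower (Fabp3 and Acat2), beside 4.61% and 5.2% of all genes (9.81% in all), with 18 above and 17 below 0 and a median of 0.01. No overlap was seen for 2 members higher and 3 lower, beside 4.31% and 4.73% of all genes. Fabp3 was lower in EPI, with a log2 fold change of −3.48 ± 0.30 (adjusted p = 5.6e-06), and so was Acat2, with −1.37 ± 0.23 (adjusted p = 0.0012), both kept without any single embryo. Acaa2 was higher in EPI by 2.83 ± 0.64 (adjusted p = 0.011), and Acads by 1.60 ± 0.44 (adjusted p = 0.033). With the embryo as a block, which pairs the EPI and PrE sums of an embryo, the adjusted p was 0.054 for Acaa2 and 0.11 for Acads, and 1 member was called higher. The Acads call was also lost without embryo 2, 4, 5, 6 or 7 (adjusted p 0.057 to 0.12). Etfa was higher by 0.62 ± 0.16 (adjusted p = 0.021), lost without embryo 2, 4 or 7 (adjusted p 0.056 to 0.087). Fabp5 was not called (0.06 ± 0.59, adjusted p = 0.98), and in PrE 1 embryo at 268 CPM stood above 5 embryos at 18.2 to 49.4.

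**Figure D5:**
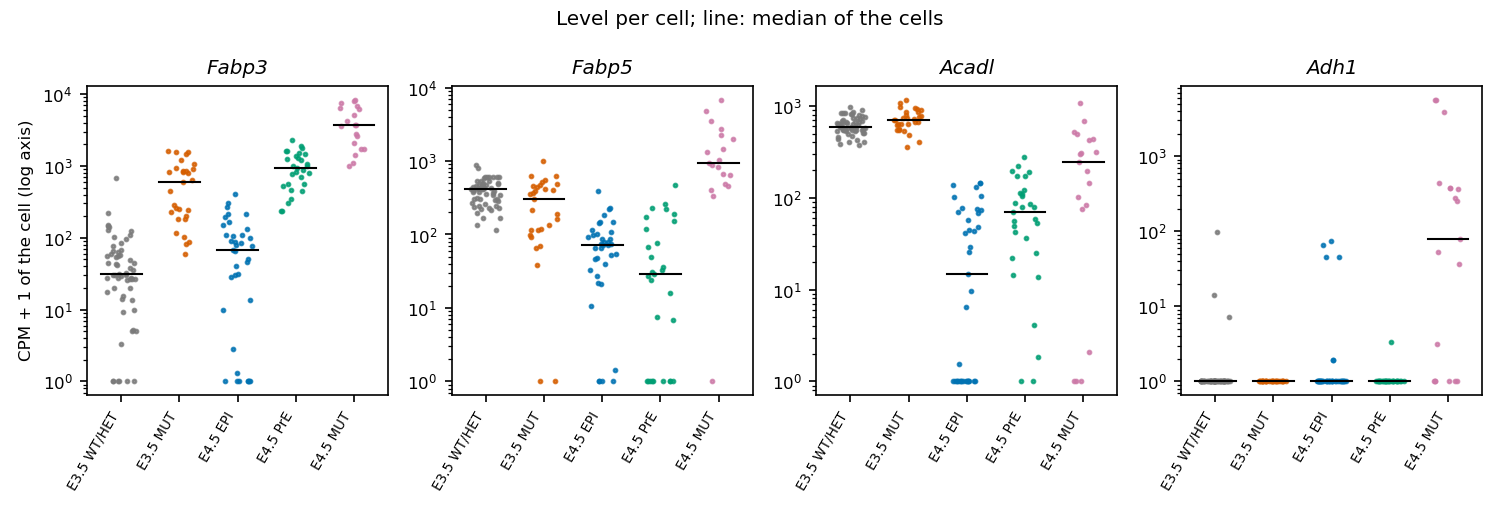
Level per cell of Fabp3, Fabp5, Acadl and Adh1 (CPM + 1, log axis), with 1 point per cell and a line at the median of the cells in each group. Fabp3 is found in every E4.5 MUT cell, whereas Adh1 spans from 0 to 5579 CPM among them.

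Shares of cells with at least 1 count added a view that a few deep cells cannot set. Fabp3 was detected in 19 of 19 E4.5 MUT cells, 30 of 37 EPI, 29 of 29 PrE, 29 of 29 E3.5 MUT and 52 of 58 E3.5 WT/HET cells. Acadl was detected in every E3.5 cell, but in 16 of 19 E4.5 MUT, 22 of 37 EPI and 27 of 29 PrE cells. The 3 members that fell in E3.5 MUT were also found in a smaller share of cells there. Among E3.5 MUT cells Eci1 was found in 12 of 29, and among WT/HET cells in 47 of 58. In the same order, Aldh2 was found in 16 of 29 and 54 of 58, and Acaa2 in 23 of 29 and 58 of 58. Among members that edgeR did not call at E3.5 but another tool did, chosen after their values were seen, Acsl5 was found in 3 of 29 and 35 of 58, Acaa1a in 17 of 29 and 54 of 58, Acaa1b in 5 of 29 and 36 of 58, and Decr1 in 10 of 29 and 42 of 58. Of the others called lower by another tool alone, Acat1 was found in 23 of 29 and 56 of 58, whereas Echs1 and Acat2 were found in every E3.5 cell of both genotype groups. Acaa1b was found in 0 of 19 E4.5 MUT cells and in 13 of 37 EPI and 13 of 29 PrE cells. As a count of cells alone, 0 of 19 allows a share of cells with a count of up to 17.6% (exact binomial 95% interval). This limit covers counting error only, and not the spread between the 2 embryos that the 19 cells came from.

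After each cell was thinned to 927065 counts, which left out 18 cells, the 7 members in the next sentence were again found in a smaller share of E3.5 MUT than of WT/HET cells. Eci1 was found in 9 of 25 E3.5 MUT and 37 of 48 WT/HET cells, Aldh2 in 14 of 25 and 44 of 48, Acaa2 in 19 of 25 and 48 of 48, Acsl5 in 3 of 25 and 29 of 48, Acaa1a in 14 of 25 and 44 of 48, Acaa1b in 4 of 25 and 25 of 48, and Decr1 in 9 of 25 and 33 of 48. Thinned Fabp3 was found in 25 of 25 and 41 of 48, and Acadl in all cells of both groups. Cells of an embryo share their source, so no test was made over cells.

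Within E4.5 MUT embryos the cells differed by gene. Fabp3 ranged over the 19 cells from 984 to 8257 CPM (median 3703), Fabp5 from 0 to 6752 CPM (median 931) and Acadl from 0 to 1067 CPM (median 247). Adh1 was detected in 13 of 19 of these cells, at 0 to 5579 CPM (median 76.8). A single cell held 49.2% of the 15933 Adh1 counts of embryo 3 and 92.7% of the 8424 of embryo 8, so the embryo sums of this gene rest on few cells. For Fabp3 the highest cell held 19.8% and 21.6% of the embryo's counts. Across the 11 cells of embryo 3 and the 8 cells of embryo 8, Spearman's rho with the summed TE markers of the cell was −0.77 and −0.90 for Fabp5, 0.27 and −0.12 for Fabp3, 0.32 and 0.79 for Acadl, and 0.60 and 0.81 for Adh1. These coefficients describe cells that share an embryo, and both quantities of a cell are divided by the same library total.

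The rest of the pathway was read from 98 further genes of uptake, carnitine metabolism, mitochondrial and peroxisomal oxidation, lipid droplets, synthesis and regulation. At E3.5 1 of 77 tested rose and 6 fell in MUT, 9.09% beside 6.18% of all genes. Crot, the peroxisomal carnitine octanoyltransferase, rose by 1.99 ± 0.33 (adjusted p = 0.0055). Those that fell were Phyh (−1.51) and Amacr (−4.23), which handle branched chains in peroxisomes, Scd1 (−1.47), Acly (−0.66) and Tecr (−1.08) of fatty acid synthesis and desaturation, and the droplet protein Plin3 (−0.97, all log2 fold changes). At E4.5, 7 of 83 rose against EPI and 3 of 79 against PrE, and 0 fell in either edgeR test, which makes 8.43% and 3.8% beside 4.92% and 3.81% of all genes. At an unadjusted p under 0.05 4 and 6 were lower, DESeq2 called 4 lower in each, and limma 3 and 5. Over all genes, in either direction, DESeq2 called 1691 of 12953 against EPI and 1219 of 12246 against PrE, and limma 1479 and 1097. Slc22a5, the plasma membrane carnitine transporter, was called against both lineages and rose by 7.61 and 6.31 on the log2 scale against EPI and PrE. The synthesis and desaturation genes (13 of 14 tested at E3.5 and against EPI, 14 against PrE) had fitted medians below 0 in all 3 MUT comparisons (−0.47, −0.52 and −0.97), with 3 called lower at E3.5. At E4.5 edgeR called 0 of them, with 3 (EPI) and 5 (PrE) lower at an unadjusted p under 0.05, 3 and 3 lower by DESeq2 and 2 and 5 by limma. In the interaction 5 of 88 were called higher (among them Acsf2 3.58, Phyh 2.16, Plin2 2.10 and Plin3 1.34) and 1 lower (Hacd3 −1.64), 6.82% beside 5.46% of all genes. Of the calls of these further genes, those of Phyh, Amacr, Crot and Plin3 at E3.5 and of Acsf2 in the interaction were kept without any single embryo, while 0 of the 3 against PrE were.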

How the data were processed

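The authors sequenced Smart-seq2 libraries of single cells as 125-bp read pairs, aligned them with STAR to mm10 and counted them per Ensembl gene with HTSeq, as the labels, the processing notes and the methods state; the strand setting is not given in the sources used here. The deposited values are raw counts per gene and cell, unnormalized, for 172 cells and 49671 gene rows, of which 49412 matched a symbol. The 5 summary rows of a file were left out of library sizes: 4.72% of read pairs lay in no gene, 8.65% in more than one and 32.3% aligned more than once. No cells were identical (highest correlation 0.919).

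Genotype and lineage came from the labels, embryo numbers from the study's sample table. Counts were summed per embryo, filtered with filterByExpr and tested with edgeR 4.0.16 (quasi-likelihood F test, TMM, Benjamini-Hochberg over all genes tested, threshold 0.05; limma 3.58.1, R 4.3.3). The fits at E3.5, against EPI and against PrE were also run on simulated counts with dispersions taken from these data. The outcome is not reported here, and the other comparisons were not simulated. The standard error was taken as the log2 fold change over the square root of F. Tables and figures used Python 3.11.15, numpy 2.4.6, pandas 2.3.3, scipy 1.17.1 and matplotlib 3.10.9. Alternatives were DESeq2 1.42.0, its size factors, no filter, limma-trend on cell means (cells weighted equally), all groups in 1 fit, WT embryos as the only controls, each embryo left out, other detection thresholds, thinning and the embryo as a replicate block. The EPI and PrE sums are paired by origin from the same embryo. Their deviations from the lineage means correlated at 0.0458, 0.0301, 0.0163, 0.034, 0.00886 and 0.0388, and were highest with the own embryo in 5 of 6.

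Members, roles, further pathway genes and markers were chosen with earlier results of these data known. All 39 members are named. Values per embryo are given for members called in a MUT comparison or in the interaction and for the highest per kb in each role. Further pathway genes are named where called against both lineages at E4.5, at E3.5 or in the interaction, except some that are not reported here. Levels per embryo are comparable between genes only per kb of exon. Promoter sequences are RefSeq's, on GRCm38.p6.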

Additional observations from a re-analysis of the deposited data

Results flagged for a closer look

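Of 59 groups of 4 to 10 embryos tested for a single embryo that stands apart, 6 did so by Dixon's criterion, which chance gives in about 1 in 20 groups. They were Acat2 in E3.5 WT/HET embryo 14 (122 CPM), Adh1 in E3.5 WT/HET embryo 15 (7.54 CPM), Acsl4 in PrE of embryo 2 (56.7 CPM), Adh1 in PrE of embryo 5 (0.502 CPM), Fabp5 in PrE of embryo 1 (268 CPM) and Eci1 in EPI of embryo 1 (129 CPM). Each was the highest value of its group. The other 5 PrE sums of Adh1 were at 0, so any single value above 0 would meet the criterion there, and that case says nothing about chance.

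By edgeR's interaction test, a difference of the MUT effect between the stages was called for 7 of 37 tested members (18.9%), beside 5.46% of all genes. On the log2 scale the E4.5 effect minus the E3.5 effect was 4.76 for Fabp5, 1.23 for Hadha, 1.88 for Acadl, 2.55 for Aldh2, 1.02 for Scp2, 14.91 for Adh1 (0 counts in E3.5 MUT, so the size is no bound) and −7.06 for Acaa1b (0 counts in E4.5 MUT, likewise). Adjusted p was 0.00075, 0.0074, 0.019, 0.021, 0.046, 0.019 and 0.030 in that order. The effect at E4.5 was higher for the first 6 genes and lower for Acaa1b. Only the calls of Fabp5 and Hadha were kept without any single embryo, and that of Hadha was lost with WT embryos as the only controls. Of the 7, limma called Fabp5 and Adh1 alone. Stage and plate cannot be told apart.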

How the results depend on the processing

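The comparisons below are named as in the report, with the number of genes or members called by edgeR's quasi-likelihood test at an adjusted p under 0.05. The calls were 746 genes at E3.5, 637 against EPI, 466 against PrE, 958 for EPI against PrE, 1039 against whole ICMs and 896 in the interaction. Members called higher and lower in that order of comparisons were 2 and 3, 5 and 0, 5 and 2, 3 and 2, 8 and 1, and 6 and 1. With DESeq2, genes called were 1607, 1691, 1219, 1447, 2386 and 1816. It called 9 members higher against EPI and 10 in the interaction, and lower 8 at E3.5, 1 against EPI and 2 against whole ICMs. With limma-trend on cell means, genes called were 1353, 1479, 1097, 1824, 1770 and 1445. It called members higher 1 at E3.5, 5 for EPI against PrE, 4 against whole ICMs and 3 in the interaction. It called members lower 10, 1, 1, 6, 2 and 0 in the order of comparisons, and the members' median log2 fold change against PrE was 0.52 in place of 0.75. With all groups in 1 fit, genes called were 193 at E3.5, 1631 against EPI, 1366 against PrE, 2467 for EPI against PrE and 1904 against whole ICMs. Members called higher were then 1 at E3.5 and 8 against PrE, and lower 0 at E3.5, 1 against EPI and 2 against whole ICMs. With WT embryos as the only controls, genes called were 435, 48, 27, 3, 25 and 470. Members called higher were 1, 2, 1, 0, 2 and 3, and lower 0 against PrE, 0 for EPI against PrE, 0 against whole ICMs and 0 in the interaction. Of 37 member calls with a value there, 11 were kept, 5 of them among the 25 of E4.5. With no filter on low counts, 1 member was called higher for EPI against PrE and 0 lower in the interaction. The cause of these shifts was not tested, beyond the fewer embryos that the fit on WT controls holds.

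Leaving out each embryo in turn gave 482 to 882 genes at E3.5, 226 to 774 against EPI, 169 to 534 against PrE, 649 to 916 for EPI against PrE, 524 to 1061 against whole ICMs and 562 to 1015 in the interaction. Members called higher ranged from 1 to 2, 2 to 6, 2 to 5, 1 to 3, 3 to 9 and 3 to 10 in that order. Members called lower ranged from 1 to 7 at E3.5, 0 to 2 against PrE, 1 to 2 against whole ICMs and 0 to 1 in the interaction, with 0 in every such fit against EPI and 2 in every one for EPI against PrE. The members' median ranged from −0.50 to −0.13 at E3.5, 0.52 to 0.91 against EPI, 0.56 to 0.89 against PrE and −0.13 to 0.02 for EPI against PrE. Without 1 of the E4.5 MUT embryos, the other was assumed to vary like the rest. Of 38 member calls, 15 were kept without any single embryo.

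A direction turned for genes that were not called. Fabp5 in EPI against PrE went from 0.06 to −0.09, −0.05 and −0.19 without embryos 2, 6 and 7, and reached 0.93 without embryo 1. Fabp3 in the interaction went from −0.33 to 0.82 with limma-trend and to 0.23 with WT controls.

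With the embryo as a replicate block, EPI against PrE gave 840 genes and 1 member called higher, since Acaa2 (adjusted p = 0.054) and Acads (adjusted p = 0.11) were no longer called by edgeR, and it changed no other member call. No paired analysis was possible for the MUT comparisons because MUT and control cells came from different embryos.

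The 2 MUT embryos at E4.5 limit every comparison there, and a gene at 0 counts has no measured fold.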
